A study of Saccharomyces cerevisiae with 12 samples.

Results

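The genes described here are those that the deposited table of yeast transcript levels names ATG followed by a number, the autophagy-related genes of Saccharomyces cerevisiae. This rule, which uses the name and no measured value, found 28 genes of the 6645 in the table. The genome annotation holds 37 genes with an ATG symbol, and the other 9 stood in the table under an older or systematic name. Those 9 are described separately, after the 28. Of the 28 genes, 21 reached the mean of 20 PPM over all libraries that was required for testing and 7 did not.

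The study asked whether yeast cells of the same culture and age that differ in redox state also differ in their transcripts. Haploid wild-type cells of the laboratory strain BY4741 carried Grx1-roGFP2, a fluorescent protein sensor that reports the glutathione redox state of the cytosol. They were grown with aeration in a modified casein amino acid medium for 48 or 72 hr and sorted by flow cytometry into an oxidized and a reduced subpopulation, with dead cells gated out by propidium iodide. All 4 groups (oxidized and reduced cells at 48 hr, oxidized and reduced cells at 72 hr) therefore shared the strain, the sensor plasmid and the medium, and each was represented by 3 libraries. The paper describes the 3 libraries of a group as biological replicates. It states that the sorting into reduced and oxidized cells was done at least 3 times for this purpose. Whether libraries with the same number come from the same sort is not stated.

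Levels are given as PPM, the share of a library's reads that fell on a gene, in parts per 1000000, after removal of PCR copies by molecular identifier. Each gene was counted in a window of the same size at its 3′ end, so that PPM can be compared between genes. The libraries held 90403 to 241084 reads, so that 1 read was worth 4.15 to 11.1 PPM, and the 28 genes together gave only 177 to 555 reads per library. The methods give the mating type as MATα, but genes of a cells were the higher ones. MFA1, which encodes the a pheromone, stood at 437 to 691 PPM in the 12 libraries, and MF(ALPHA)1, which encodes the alpha pheromone, at 21.2 to 133 PPM. Of the genes that the methods list as mutated, MET17 (the current name of MET15) was at 0 in all 12 libraries and LEU2 at 0 in 8 of them, whereas HIS3 stood at 158 to 265 PPM and URA3 at 1117 to 1933 PPM. For imaging, the methods name growth without uracil as the selection, and whether the URA3 reads come from the sensor plasmid was not tested.

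Autophagy carries cytoplasm and organelles to the vacuole, the degradative compartment of yeast, inside vesicles with a double membrane. A signal of nutrient shortage activates the Atg1 kinase complex, a lipid kinase complex and vesicles that contain Atg9 build the membrane, and a conjugation machinery related to ubiquitin attaches Atg8 to it. Cargo receptors bind Atg8 and the scaffold Atg11 and so select what is engulfed, such as mitochondria or vacuolar enzymes, and several of these genes are known to be transcribed more strongly when nutrients run out.

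The bases before the coding sequence are shown for ATG8, the member that passed the test at 72 hr, and ATG26, the member that passed over both ages. They are also shown for ATG19, whose oxidized and reduced libraries stood in opposite orders at 48 and 72 hr. This change with age did not pass the test (limma, adjusted p = 0.15). The sequences, read from the sacCer3 genome, are the 250 bases upstream of the start codon. Capitals mark every match, on either strand, to 4 short motifs of known yeast regulators. The letters CCCCT form the stress response element bound by Msn2 and Msn4. Factors of the GATA family, among them Gln3 and Gat1, bind GATAAG. The activator Gcn4 binds TGACTC, and the repressor Ume6 binds GGCGGC. The first sequence lies at chrII:80732-80981 and the second at chrXII:534394-534643, both on the minus strand, and the third at chrXV:168477-168726 on the plus strand.
ATG8: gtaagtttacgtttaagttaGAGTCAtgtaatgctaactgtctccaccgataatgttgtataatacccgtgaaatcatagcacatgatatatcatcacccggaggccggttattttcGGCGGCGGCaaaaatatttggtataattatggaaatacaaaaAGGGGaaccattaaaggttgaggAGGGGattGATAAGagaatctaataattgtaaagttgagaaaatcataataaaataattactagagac
ATG26: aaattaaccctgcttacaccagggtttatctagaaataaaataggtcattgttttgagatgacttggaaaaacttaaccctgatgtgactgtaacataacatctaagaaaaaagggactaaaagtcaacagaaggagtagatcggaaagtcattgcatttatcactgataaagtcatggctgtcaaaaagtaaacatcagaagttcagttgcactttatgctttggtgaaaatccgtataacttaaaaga
ATG19: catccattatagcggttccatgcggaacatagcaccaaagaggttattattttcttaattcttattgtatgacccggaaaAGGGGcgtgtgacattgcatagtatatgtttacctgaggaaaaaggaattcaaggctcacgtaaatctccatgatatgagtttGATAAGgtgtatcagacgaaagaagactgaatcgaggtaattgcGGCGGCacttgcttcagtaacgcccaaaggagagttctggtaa
The window of ATG8 held matches to all 4 motifs, that of ATG19 to 3 of them, and that of ATG26 to none. Over the 28 genes, GATAAG was found in 9 windows (32.1%, against 12.5% of the windows of all 6001 protein-coding genes) and CCCCT in 7 (25% against 18.8%). TGACTC was found in 4 windows (14.3% against 6.25%) and GGCGGC in 2 (7.14% against 4.17%), those of ATG8 and ATG19. In ATG8 the matches overlap in 1 place only, where GGCGGC occurs in a run of repeated triplets. A match is a run of letters and not a site of binding.

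The 28 genes spanned a wide range of levels. Their means over 12 libraries ran from 3.43 PPM for ATG16 to 723 PPM for ATG8, with a median of 49.8 PPM, close to the 49.1 PPM of the 6308 genes found in at least 1 library. ATG8 (YBL078C, chrII:80378-80731, minus strand), which encodes the ubiquitin-like protein of the autophagosomal membrane, stood above 96.1% of those genes. It was followed by ATG19 (183 PPM), the receptor that brings vacuolar aminopeptidase into the cytoplasm-to-vacuole targeting (Cvt) pathway, and by ATG33 (113 PPM), a mitochondrial outer membrane protein needed for the degradation of mitochondria. ATG9, which encodes the lipid scramblase of the precursor vesicles, was the fourth (107 PPM). A further 10 members had means of 50 to 100 PPM and 7 had means of 20 to 50 PPM, among them ATG1 (34.4 PPM), which encodes the kinase that starts the process. The other 7 had means below 20 PPM, and 11 of the 28 genes were at 0 in at least 1 library.

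**Figure D1:**
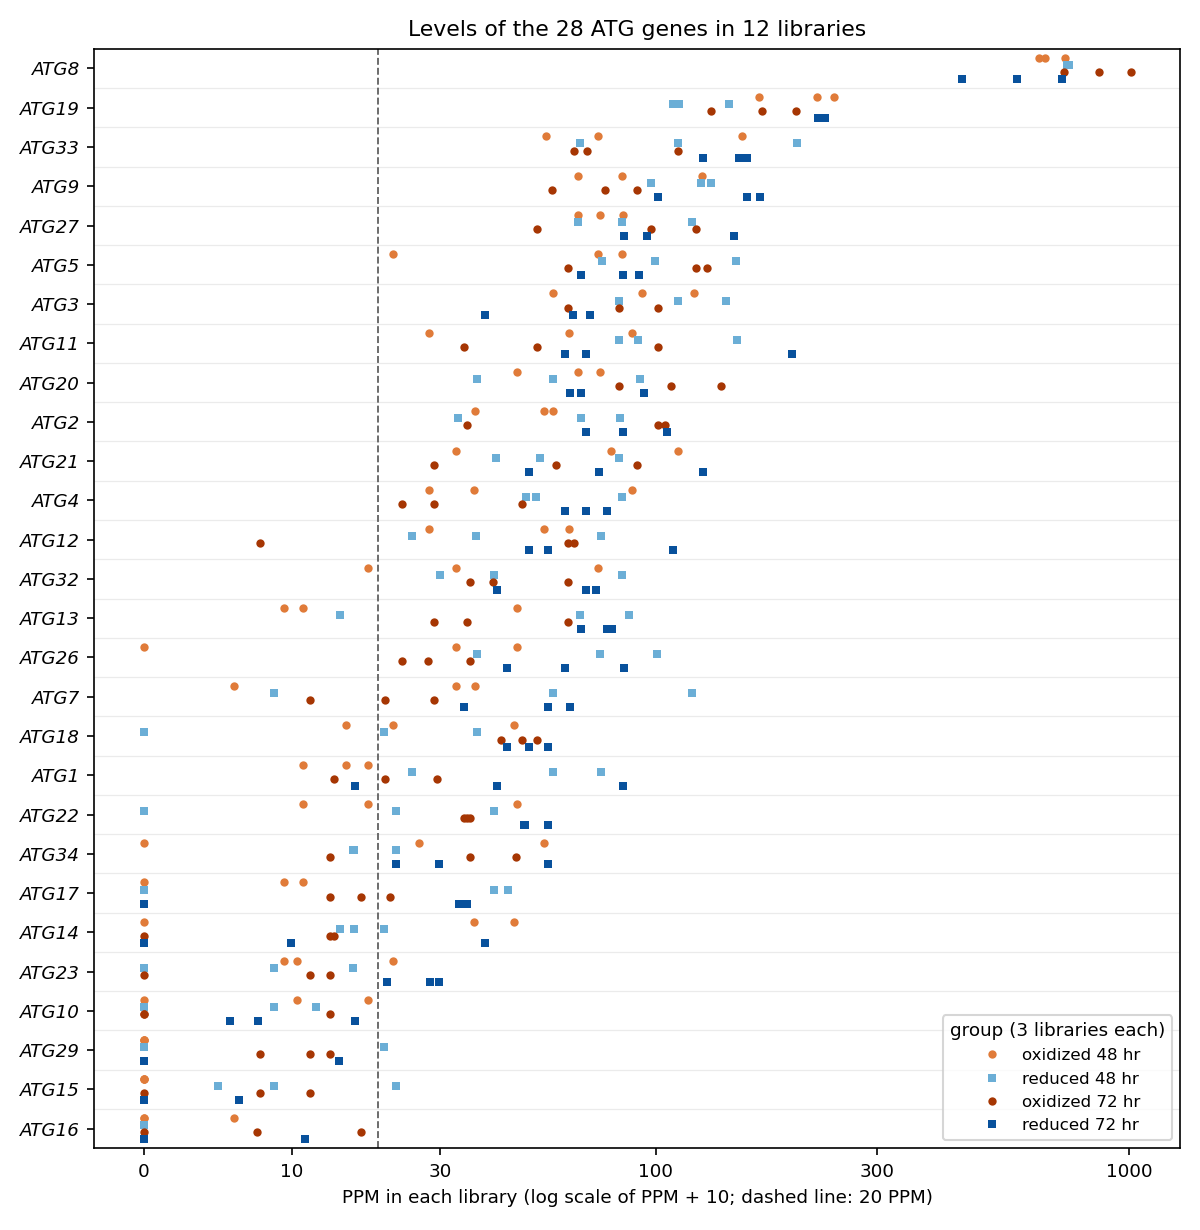
PPM of the 28 ATG genes in each of the 12 libraries, on a log scale of PPM + 10, with the genes ordered by their mean and the 4 groups in colour. ATG8 lies between 451 and 1008 PPM, far to the right of the other members, and the 7 genes at the bottom have means left of the dashed line at 20 PPM, which was required for testing.

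The members' summed level differed between the subpopulations in a way that depended, at 72 hr, on ATG8. ATG8 alone made up 33.3% to 36.7% of the sum at 48 hr in oxidized cells and 31.8% to 35.2% in reduced ones, but 35.2% to 43.8% and 22.0% to 27.3% at 72 hr. Without ATG8, the other 27 genes summed to 1156 to 1305 PPM in the oxidized and 1376 to 1609 PPM in the reduced libraries at 48 hr. At 72 hr they summed to 1291 to 1367 PPM in the oxidized and 1600 to 1937 PPM in the reduced libraries. At each age every oxidized library was thus below every reduced library, also after rescaling by median-of-ratios size factors, which bring the middle of all genes' ratios between libraries to 1. With ATG8 included the libraries overlapped at 72 hr (2092 to 2299 PPM against 2051 to 2665 PPM). At 48 hr they did not overlap with ATG8 included (1827 to 2013 PPM against 2123 to 2361 PPM). After rescaling those sums of 48 hr did overlap (1908 to 2150 PPM against 2140 to 2399 PPM). These sums carry no test, and most of all genes tested also had lower estimates in oxidized cells, as given below. In sorted bulk samples, fewer cells that express a gene and less RNA per cell cannot be told apart.

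To ask which single genes differed, log2(PPM + 10) was compared in one limma fit over the 4776 genes whose mean reached 20 PPM, with p-values adjusted by the Benjamini-Hochberg method over all of them and a threshold of 0.05. Differences are on this log2 scale, oxidized minus reduced, and understate the change of weakly expressed genes. At 48 hr, 0 of the 21 members tested passed in limma, against 3.85% of all genes tested. At an unadjusted p under 0.05 there were 6 members (1 higher and 5 lower in oxidized cells), 6 of 21 against 14.6% of all genes. At 72 hr, 1 member passed, ATG8, against 9.61% of all genes, and 4 members (1 higher and 3 lower) had an unadjusted p under 0.05, against 20.4%. For the redox difference averaged over both ages, 1 member passed, ATG26, against 11.9% of all genes, and 8 members, all lower in oxidized cells, had an unadjusted p under 0.05, against 23.2%.

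The direction of the estimates was more often towards lower levels in oxidized cells. At 48 hr 14 of the 21 estimates were negative, at 72 hr 17, and over both ages 16, whereas 56.7%, 58.0% and 58.7% of all genes tested were negative. The median difference of the 21 members was -0.30 at 48 hr, -0.44 at 72 hr and -0.29 over both ages, beside medians of -0.07, -0.11 and -0.08 for all genes tested. After median-of-ratios scaling, which brought the medians of all genes to -0.01, -0.04 and -0.01, those of the members were -0.24, -0.37 and -0.22, with 14, 16 and 15 of 21 negative. The libraries of oxidized and reduced cells did not overlap for 3 members at 48 hr (1 higher and 2 lower in oxidized cells), where 17.5% of all genes did not, and for 9 at 72 hr (1 higher and 8 lower), where 26.0% did not. After median-of-ratios scaling 2 members (1 higher and 1 lower) remained without overlap at 48 hr, since ATG8 then overlapped, and 9 at 72 hr.

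ATG8 was the one member that passed the test at 72 hr. Its levels were 865, 736 and 1008 PPM in the oxidized libraries (replicates 1 to 3) and 586, 728 and 451 PPM in the reduced libraries. Every oxidized library was above every reduced one, although oxidized replicate 2 and reduced replicate 2 were nearly equal. The mean was 870 ± 136 PPM (SD, n = 3) against 588 ± 139 PPM (SD, n = 3), and the difference of 0.57 (SE 0.18, 95% interval 0.22 to 0.93), a 1.49-fold higher level, passed the test (limma, adjusted p = 0.027). It did not pass without oxidized replicate 1 (adjusted p = 0.078) or 3 (adjusted p = 0.20), or without reduced replicate 1 (adjusted p = 0.072) or 3 (adjusted p = 0.19) of 72 hr. At 48 hr the order was the opposite but the distance was small. The oxidized libraries were at 653, 671 and 738 PPM and the reduced libraries at 747, 747 and 752 PPM. After median-of-ratios scaling these overlapped, with 683 to 788 PPM in the oxidized and 742 to 764 PPM in the reduced libraries. That difference of -0.12 (SE 0.18, 95% interval -0.48 to 0.23) did not pass (limma, adjusted p = 0.83).

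ATG26 encodes a sterol glucosyltransferase, which in methylotrophic yeast takes part in the degradation of peroxisomes. Its levels at 48 hr were 33.2, 0 and 47.4 PPM in the oxidized libraries and 74.7, 101 and 37.6 PPM in the reduced libraries, which overlapped. At 72 hr they were 27.9, 36.1 and 23.6 PPM in the oxidized and 44.7, 84.8 and 62.0 PPM in the reduced libraries, which did not overlap. Over both ages the difference was -1.14 (SE 0.35, 95% interval -1.85 to -0.43, 0.454-fold) and passed the test (limma, adjusted p = 0.024). Neither age alone passed, with -1.39 (SE 0.50, adjusted p = 0.13) at 48 hr and -0.89 (SE 0.50, adjusted p = 0.32) at 72 hr. These levels rest on 0 to 9 reads in an oxidized and 5 to 18 reads in a reduced library. The averaged difference did not pass at a pseudocount of 1 PPM (-1.79, adjusted p = 0.093) or without the filter on low values (-1.14, adjusted p = 0.058). It also did not pass without oxidized replicate 2 (-0.75, adjusted p = 0.13), reduced replicate 1 (adjusted p = 0.058) or reduced replicate 2 (adjusted p = 0.088) of 48 hr, or without oxidized replicate 3 (adjusted p = 0.059) or reduced replicate 2 (adjusted p = 0.080) of 72 hr. At 48 hr the difference passed without oxidized replicate 3 (-1.88, adjusted p = 0.042).

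**Figure D2:**
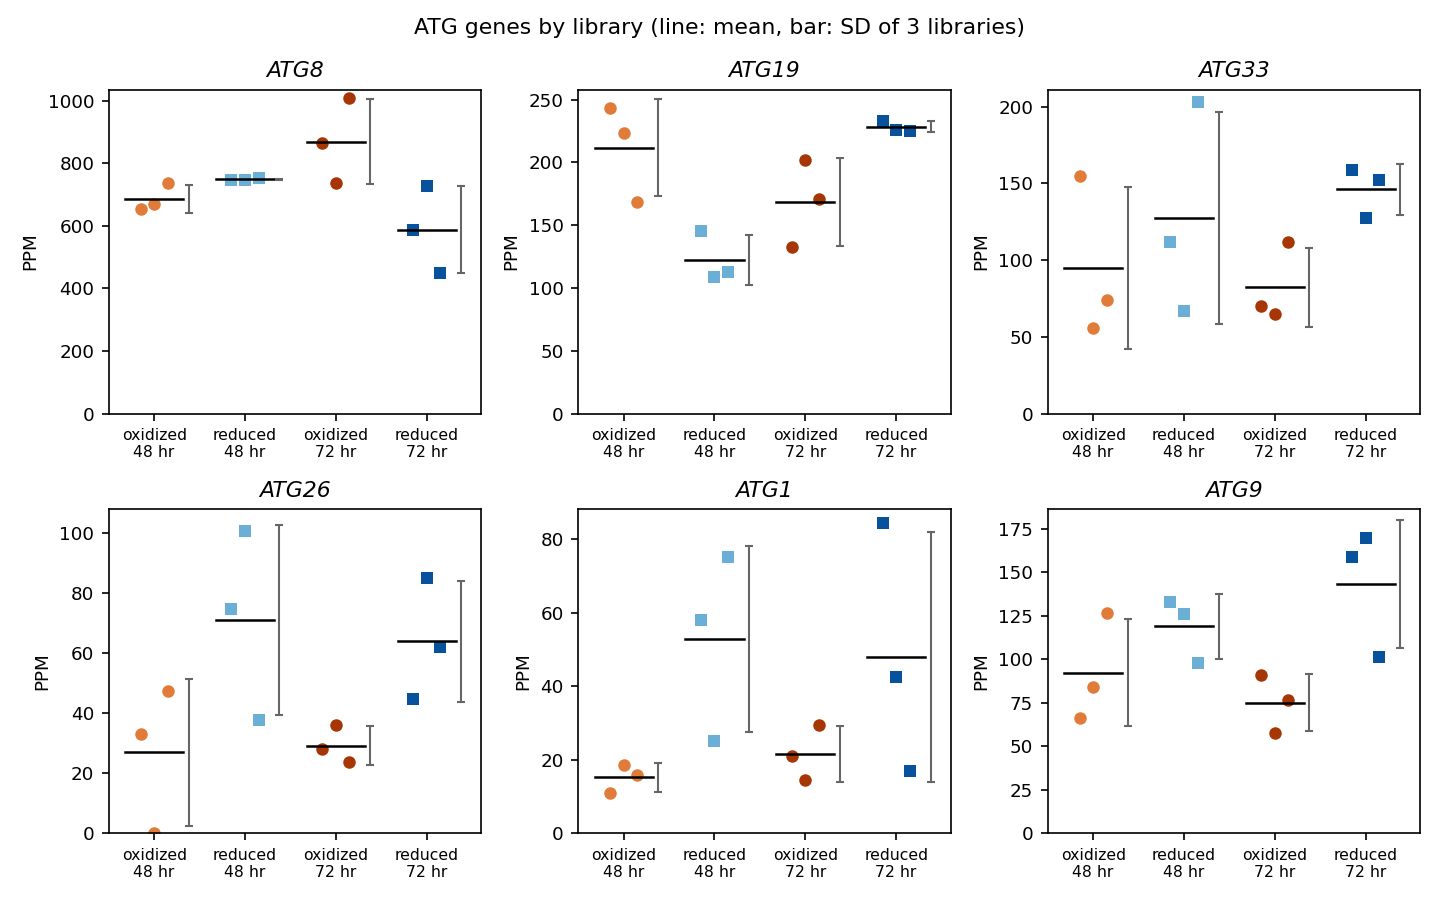
PPM of ATG8, ATG19, ATG33, ATG26, ATG1 and ATG9 in each library of the 4 groups, with the mean as a line and the SD of 3 libraries as a bar, all axes starting at 0. The oxidized libraries of ATG8 lie below the reduced ones at 48 hr (not after median-of-ratios scaling) and above them at 72 hr, and those of ATG19 the other way round.

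Among the 28 genes, those for the scaffold (ATG11) and the cargo receptors ATG19, ATG32 and ATG34 were grouped with ATG33, the gene of the mitochondrial outer membrane protein. The receptor genes ATG36, ATG39 and ATG40 stand in the table under another name and are not counted here. One of them, YLR312C (ATG39), passed at both ages (limma, adjusted p = 0.013 at 48 hr and 1.5e-05 at 72 hr) and is described below. Of the 5 genes grouped here, 0 passed the limma test for the redox difference at either age, against 3.85% of all genes at 48 hr and 9.61% at 72 hr. At an unadjusted p under 0.05 there were 2 at 48 hr (ATG19 and ATG11), against 14.6% of all genes, and 1 at 72 hr (ATG33), against 20.4%. ATG19 was at 243, 224 and 169 PPM in the oxidized and 145, 109 and 113 PPM in the reduced libraries at 48 hr. At 72 hr it was at 133, 202 and 171 PPM in the oxidized and 233, 226 and 225 PPM in the reduced libraries. The subpopulations did not overlap at either age, with the oxidized libraries above the reduced ones at 48 hr and below them at 72 hr. The differences were 0.74 (SE 0.26) at 48 hr and -0.44 (SE 0.26) at 72 hr, with adjusted p-values of 0.10 and 0.35 in limma.

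ATG33 was at 155, 55.9 and 73.8 PPM in the oxidized and 112, 67.1 and 203 PPM in the reduced libraries at 48 hr, which overlapped. At 72 hr the oxidized libraries were at 69.8, 64.9 and 112 PPM and the reduced libraries at 159, 127 and 152 PPM, with no overlap. The difference at 72 hr, -0.79 (SE 0.35, 95% interval -1.49 to -0.09), did not pass (limma, adjusted p = 0.17). ATG11, the scaffold of selective autophagy, had means of 59.9 ± 30.4 and 108 ± 37.2 PPM (SD, n = 3) in oxidized and reduced cells at 48 hr. Those of ATG32, the receptor for mitochondria, were 41.9 ± 28.6 and 51.8 ± 28.4 PPM (SD, n = 3). The means of ATG34, the receptor for alpha-mannosidase, lay between 18.6 and 36.3 PPM in the 4 groups. Both ATG11 and ATG32 had overlapping libraries at each age.

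Of the 4 genes for the Atg1 kinase complex among the 28, ATG1 and ATG13, its regulatory subunit, were tested. CIS1 (ATG31), also of this complex, stands in the table under another name and was tested too. Its estimates were -0.13 (SE 0.42) at 48 hr and -0.34 (SE 0.42) at 72 hr, with unadjusted p-values of 0.76 and 0.43 in limma. ATG1 and ATG13 had negative estimates at both ages, and 0 of 2 passed in limma at either age (background 3.85% at 48 hr and 9.61% at 72 hr), while both had an unadjusted p under 0.05 at 48 hr (background 14.6%). ATG1 was at 11.1, 18.6 and 15.8 PPM in the oxidized and 58.1, 25.2 and 75.2 PPM in the reduced libraries at 48 hr, with no overlap. At 72 hr it was at 20.9, 14.4 and 29.5 PPM in the oxidized and 84.4, 42.4 and 16.9 PPM in the reduced libraries, where reduced replicate 3 fell among the oxidized ones. The difference was -1.24 (SE 0.51, adjusted p = 0.22) at 48 hr and -0.72 (SE 0.51, adjusted p = 0.47) at 72 hr. Over both ages it was -0.98 (SE 0.36, limma, adjusted p = 0.070), and it passed with a pseudocount of 50 PPM (adjusted p = 0.032), without reduced replicate 2 of 48 hr (adjusted p = 0.036) and without reduced replicate 3 of 72 hr (adjusted p = 0.025). An oxidized library held 1 to 5 reads of ATG1.

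In the conjugation machinery, 6 of 8 genes were tested. Apart from ATG8 none passed the redox test of limma (background 3.85% at 48 hr and 9.61% at 72 hr). Besides ATG8, ATG5 at 48 hr (background 14.6%) and ATG4 at 72 hr (background 20.4%) had an unadjusted p under 0.05. The means of ATG4, the protease that processes Atg8, were 33.8 ± 13.3 PPM at 72 hr in oxidized cells and 69.8 ± 7.89 PPM in reduced ones (SD, n = 3). The difference was -0.90 (SE 0.43) and the libraries did not overlap. ATG7, the activating enzyme of Atg8 and Atg12, had means of 20.5 ± 8.54 and 51.6 ± 15.0 PPM in the same groups (SD, n = 3), also without overlap, and a difference of -1.02 (SE 0.54). ATG3, the enzyme that joins Atg8 to its lipid, and ATG5, the conjugation partner of Atg12, had positive estimates at 72 hr (0.44, SE 0.36, and 0.28, SE 0.38). The estimates of this group at 72 hr thus ran from -1.02 to 0.57, with 3 of 6 negative.

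Among the 4 tested members for Atg9 vesicles and lipid transfer, the estimates at 72 hr were all negative, from -0.84 to -0.05, where 58.0% of all genes were negative. ICY2 (ATG41), of the same role but listed under another name, had a positive estimate at 72 hr (0.44, SE 0.22). In limma 0 of the 4 members passed (background 9.61%), and 1 (ATG9) had an unadjusted p under 0.05 (background 20.4%). ATG9 was at 66.4, 83.9 and 126 PPM in the oxidized and 133, 126 and 97.8 PPM in the reduced libraries at 48 hr, and at 90.7, 57.7 and 76.6 PPM against 159, 170 and 101 PPM at 72 hr. Only at 72 hr did the libraries not overlap. Its difference of -0.84 (SE 0.32) at 72 hr had an adjusted p of 0.10 in limma, and the difference over both ages, -0.60 (SE 0.23, adjusted p = 0.080), passed without oxidized replicate 3 of 48 hr (adjusted p = 0.041) or without reduced replicate 3 of 72 hr (adjusted p = 0.047). ATG2, which encodes the lipid transfer protein, its partner ATG18 and the vesicle protein gene ATG27 had overlapping libraries at each age. The counting window of ATG9 overlaps that of NOP14 on the other strand, and 15 of the 28 members have such an overlap, while ATG8, ATG19, ATG26, ATG33 and ATG1 have none. Whether strand was used in counting is not stated, so reads of such neighbours may be mixed.

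**Figure D3:**
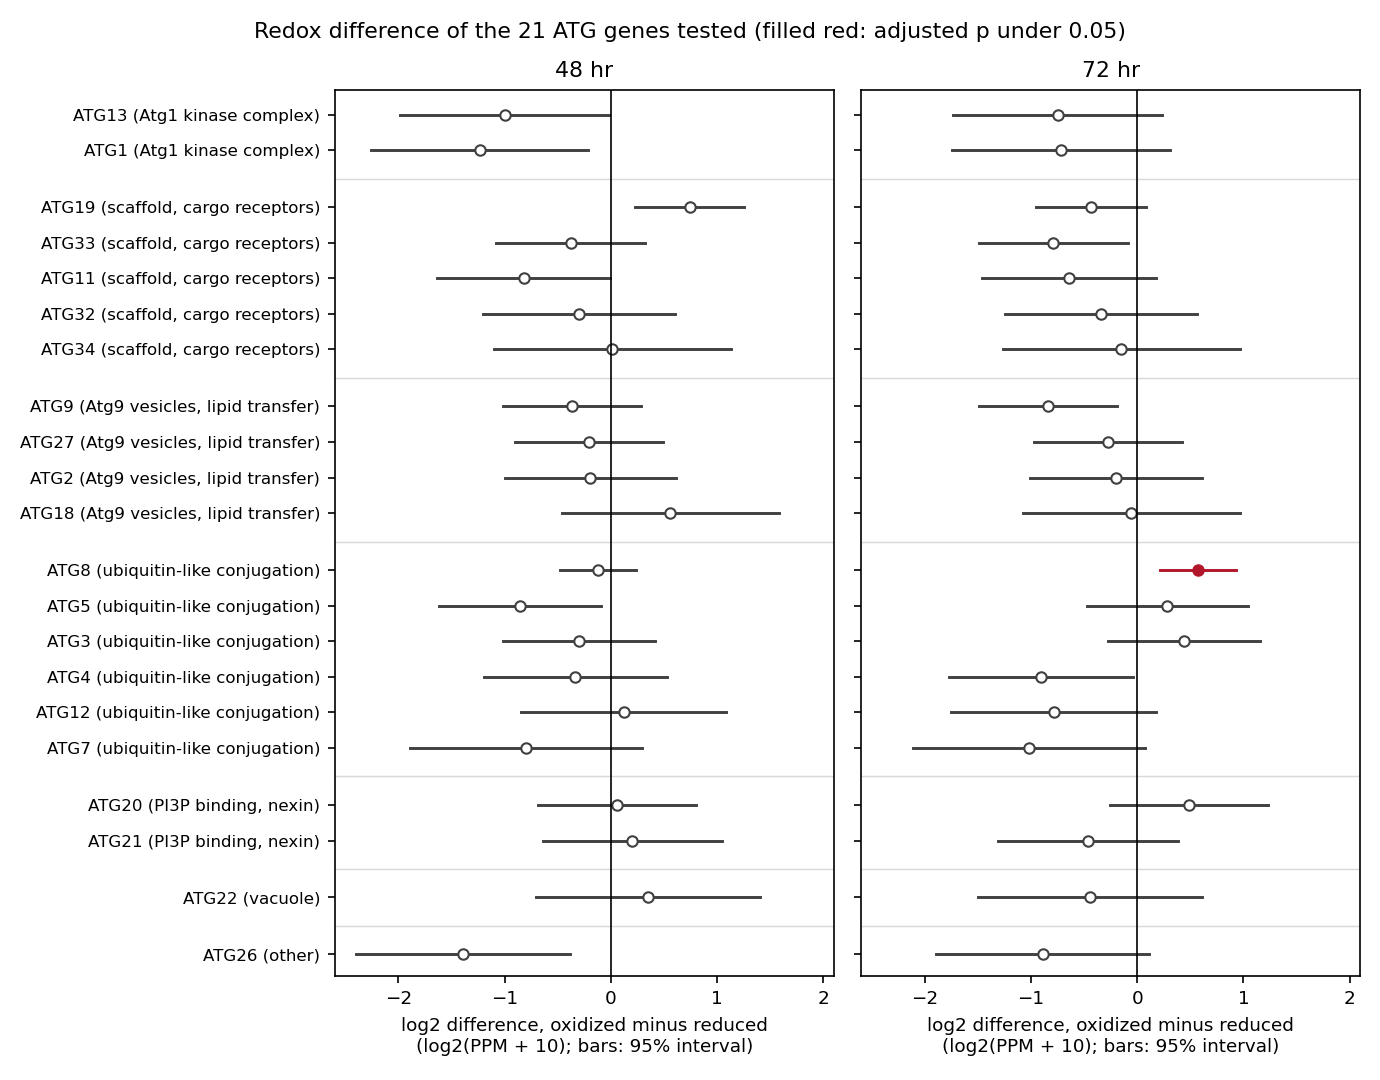
Differences between oxidized and reduced cells, on the log2(PPM + 10) scale, for the 21 ATG genes tested at 48 hr and 72 hr, grouped by role, with 95% intervals as bars. ATG33, for a mitochondrial outer membrane protein, is drawn with the scaffold and cargo receptors. ATG8 at 72 hr, with 0.57, is the one filled point, and 17 of the 21 points at 72 hr lie left of 0.

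The sorting nexin gene ATG20 and ATG21, whose product binds the lipid made by the lipid kinase complex, had estimates between -0.46 and 0.49 at both ages. ATG22, a vacuolar transporter that releases amino acids, was at 34.9, 36.1 and 35.4 PPM in the oxidized and 49.7, 49.5 and 56.3 PPM in the reduced libraries at 72 hr. These did not overlap, but the difference of -0.44 (SE 0.53) was smaller than its standard error in limma, which draws on the spread of all genes of this level (adjusted p = 0.70).

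The 7 members below the filter were ATG10, ATG14, ATG15, ATG16, ATG17, ATG23 and ATG29, with 7 to 37 reads each over all 12 libraries. They are given as sums of reads over the libraries of a group, with exact 95% intervals that cover counting error only. ATG17, the scaffold of the Atg1 complex under starvation, had 2 oxidized reads and 16 reduced reads at 48 hr, a ratio of levels of 0.159 (interval 0.0178 to 0.677). The oxidized libraries held 1, 1 and 0 of these reads and the reduced libraries 10, 0 and 6, so that reduced replicate 2 lay at the lowest level of the oxidized ones. The ratio was 0.312 (interval 0.0348 to 1.33) without oxidized replicate 3 and 0.104 (interval 0.00248 to 0.668) without oxidized replicate 1, and the interval also included 1 without reduced replicate 1 (ratio 0.217, interval 0.0214 to 1.21). At 72 hr ATG17 had 8 and 11 reads (ratio 0.838, interval 0.293 to 2.29). ATG23, which helps Atg9 to move, had 5 reads in each subpopulation at 48 hr, and 4 against 14 reads at 72 hr (ratio 0.329, interval 0.0789 to 1.05). ATG15, the vacuolar lipase gene, and ATG29, of the Atg1 complex, had 0 reads in oxidized cells at 48 hr, which allows up to 7.74 PPM, beside 5 reads each in reduced cells. For ATG29 all 5 came from reduced replicate 1, and without that library none was left in either subpopulation. For ATG15 they were 1, 1 and 3 reads, of which 2 were left without reduced replicate 3. ATG14, the subunit that directs the lipid kinase to autophagy, had 16 reads in oxidized and 18 in reduced cells over both ages (ratio 1.07, interval 0.512 to 2.23). For ATG10 and ATG16, of the conjugation machinery, the intervals over both ages also included 1.

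The second question was how the members changed between 48 and 72 hr within a subpopulation. In oxidized cells 0 of the 21 members passed in limma, against 0.440% of all genes, and 1 had an unadjusted p under 0.05 (ATG5, higher at 72 hr), against 9.90%. In reduced cells 0 passed, against 2.32% of all genes, and 5 had an unadjusted p under 0.05, against 12.0%. These were ATG19, ATG18 and ATG22, with higher levels at 72 hr, and ATG8 and ATG3, with lower levels. For the same 5 genes the reduced libraries of 48 and 72 hr did not overlap, where 17.9% of all genes did not, and in oxidized cells this held for ATG20 alone, where 14.2% of all genes did not. Averaged over both subpopulations 0 members passed, against 2.30%, and 2 (ATG18 and ATG22, higher at 72 hr) had an unadjusted p under 0.05, against 13.3%.

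ATG19 was the nearest to the threshold in reduced cells. Its level was 122 ± 19.9 PPM at 48 hr and 228 ± 4.40 PPM at 72 hr (SD, n = 3), a difference of 0.86 (SE 0.26, 95% interval 0.34 to 1.37, limma, adjusted p = 0.061). It passed when the filter was raised to 50 PPM (adjusted p = 0.039). In oxidized cells the level was 212 ± 38.7 PPM at 48 hr and 168 ± 34.8 PPM at 72 hr (SD, n = 3), with overlapping libraries and a difference of -0.32 (SE 0.26). ATG8 was at 748 ± 3.06 PPM in reduced cells at 48 hr, where its 3 libraries lay within 747 to 752 PPM, and at 588 ± 139 PPM at 72 hr (SD, n = 3), a difference of -0.37 (SE 0.18, adjusted p = 0.39).

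Whether the redox difference itself changed with age was tested by the interaction, the difference at 72 hr minus that at 48 hr. In limma 0 of the 21 members passed, against 0.775% of all genes, and 3 had an unadjusted p under 0.05. These were ATG8 and ATG5 with a positive value, against 5.34% of all genes, and ATG19 with a negative value, against 3.66%. For ATG8 the interaction was 0.69 (SE 0.25, adjusted p = 0.26) and for ATG19 -1.18 (SE 0.36, adjusted p = 0.15). Both belong to the genes whose libraries did not overlap at both ages and in opposite directions, which held for 0.921% of all genes tested. For ATG8 this did not hold after median-of-ratios scaling.

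The 9 autophagy genes that the table lists under another name were YBR139W (ATG42), CIS1 (ATG31), YIL156W-B (ATG44), YIL024C (ATG45), YJL185C (ATG36), YLR211C (ATG38), YLR312C (ATG39), YOR152C (ATG40) and ICY2 (ATG41), and all 9 were tested. The redox difference passed in limma for 1 of 9 at 48 hr (background 3.85%), 2 of 9 at 72 hr (9.61%) and 1 of 9 over both ages (11.9%), each time with a lower level in oxidized cells. Their median difference was -0.13 at 48 hr and -0.53 at 72 hr.

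YLR312C (ATG39, chrXII:757637-758833, minus strand) encodes the receptor for autophagy of the nucleus and the perinuclear endoplasmic reticulum, and had the largest redox difference of the 30 ATG genes tested at 72 hr. It was at 210, 233 and 195 PPM in the oxidized and 485, 319 and 414 PPM in the reduced libraries at 48 hr. At 72 hr it was at 188, 137 and 242 PPM in the oxidized and 516, 544 and 389 PPM in the reduced libraries. At each age the oxidized libraries were all below the reduced ones. The difference was -0.88 (SE 0.23, 95% interval -1.34 to -0.43) at 48 hr and -1.33 (SE 0.23, 95% interval -1.78 to -0.87) at 72 hr, 0.542-fold and 0.398-fold, with adjusted p-values of 0.013 and 1.5e-05 in limma. Over both ages it was -1.11 (SE 0.16, adjusted p = 3.7e-07). At 48 hr it did not pass without oxidized replicate 3 (adjusted p = 0.056), reduced replicate 1 (adjusted p = 0.13) or reduced replicate 3 (adjusted p = 0.059), and at 72 hr it passed in every alternative run.

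YIL156W-B (ATG44) encodes a mitochondrial protein that divides mitochondria for their degradation. At 72 hr it was at 174, 224 and 147 PPM in the oxidized and 407, 276 and 287 PPM in the reduced libraries, without overlap, and it was 0.576-fold in oxidized cells (-0.80, SE 0.24, limma, adjusted p = 0.020). This call was lost without oxidized replicate 1 (adjusted p = 0.063) or 3 (adjusted p = 0.14) or reduced replicate 1 (adjusted p = 0.19) of 72 hr. At 48 hr the libraries overlapped, with means of 245 ± 21.0 and 263 ± 65.7 PPM (SD, n = 3).

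ICY2 (ATG41), whose product binds Atg9, changed with age. In reduced cells it was at 614, 428 and 466 PPM at 48 hr and at 273, 240 and 293 PPM at 72 hr, without overlap. It fell by 0.87 on the log2 scale (SE 0.22, limma, adjusted p = 0.018), a call lost with a pseudocount of 1 PPM (adjusted p = 0.067) and without reduced replicate 1 (adjusted p = 0.15) or 3 (adjusted p = 0.062) of 48 hr or replicate 1 (adjusted p = 0.063) or 2 (adjusted p = 0.11) of 72 hr. Averaged over both subpopulations it fell by 0.70 (SE 0.16, adjusted p = 0.0046), which was lost without oxidized replicate 1 of 72 hr (adjusted p = 0.059). In oxidized cells it was at 520, 420 and 712 PPM at 48 hr and 230, 462 and 466 PPM at 72 hr, which overlapped.

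**Figure D4:**
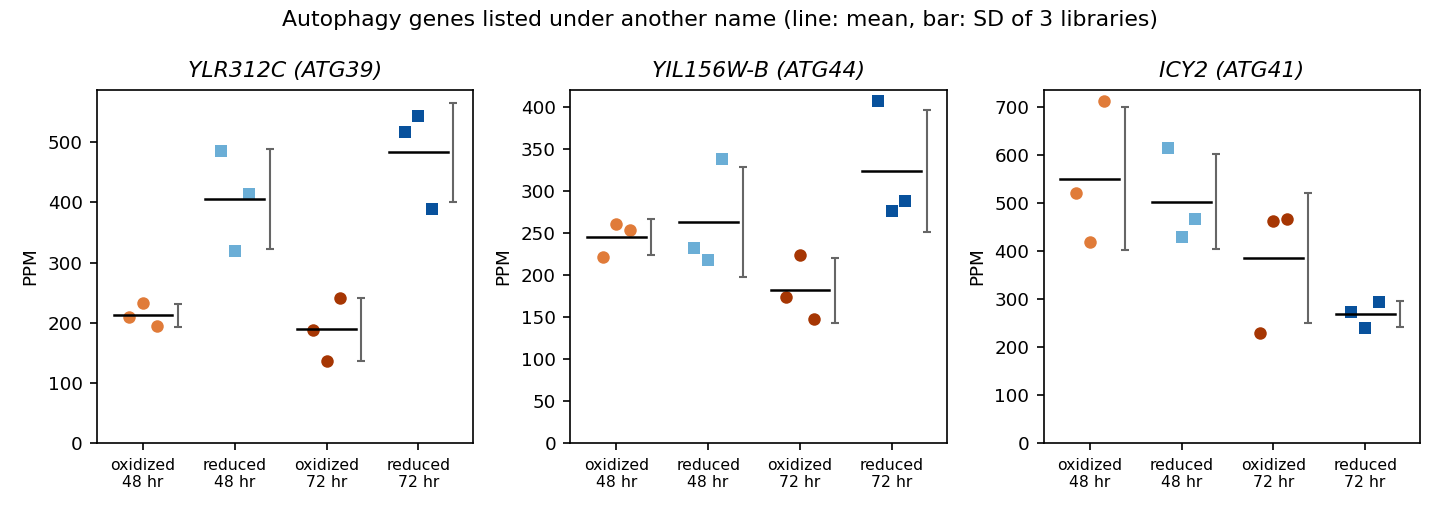
PPM of YLR312C (ATG39), YIL156W-B (ATG44) and ICY2 (ATG41) in each library of the 4 groups, with the mean as a line and the SD of 3 libraries as a bar, all axes starting at 0. The oxidized libraries of YLR312C lie at 137 to 242 PPM and its reduced libraries at 319 to 544 PPM.

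Genes that act in autophagy without an ATG name were taken from 7 lists with 45 genes, of which 41 were tested. YBR139W is also among the 9 above. Between oxidized and reduced cells 1 of 41 passed at 48 hr (background 3.85%), 3 of 41 at 72 hr (9.61%) and 5 of 41 over both ages (11.9%), the last 5 all lower in oxidized cells. The median difference was -0.23 at 48 hr, -0.30 at 72 hr and -0.22 over both ages. For the age difference 0 of 41 passed in oxidized cells (0.440%), and 4 had an unadjusted p under 0.05, against 9.90% of all genes. In reduced cells 1 of 41 passed (2.32%). Over both subpopulations 0 passed (2.30%), and 4 had an unadjusted p under 0.05, against 13.3%. For the interaction 1 of 41 passed (0.775%).

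Of the 8 regulators of transcription, 2 passed over both ages (background 11.9%), both lower in oxidized cells. They were GLN3 (-1.11, SE 0.30, limma, adjusted p = 0.0082) and GAT1 (-1.16, SE 0.23, adjusted p = 0.00019). Both encode GATA factors that activate genes under nitrogen limitation. These calls held in all 7 other settings and without any one of the 12 libraries. At a single age GLN3 passed at 48 hr (-1.47, SE 0.43, adjusted p = 0.038) and GAT1 at 72 hr (-1.25, SE 0.33, adjusted p = 0.0062). The call on GLN3 at 48 hr was lost in 4 other settings, among them a fit to the recovered reads with the precision weights of voom (adjusted p = 0.13), and without oxidized replicate 2 (-0.90, adjusted p = 0.31), reduced replicate 1 (adjusted p = 0.10) or reduced replicate 3 (adjusted p = 0.26) of 48 hr. That on GAT1 at 72 hr was lost without oxidized replicate 2 (adjusted p = 0.069), reduced replicate 1 (adjusted p = 0.052) or reduced replicate 2 (adjusted p = 0.055) of 72 hr.

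LST8, a subunit of the TOR kinase complexes, was higher in oxidized cells at 72 hr (1.03, SE 0.22, limma, adjusted p = 0.00077), also without any one library. In reduced cells it was lower at 72 than at 48 hr (-0.84, SE 0.22, adjusted p = 0.024), a call lost with a pseudocount of 1 PPM (adjusted p = 0.071) and without reduced replicate 2 (adjusted p = 0.093) or 3 (adjusted p = 0.18) of 48 hr or reduced replicate 1 of 72 hr (-0.60, adjusted p = 0.31). Its interaction with age passed (1.37, SE 0.32, adjusted p = 0.013), but not with a pseudocount of 1 PPM (adjusted p = 0.063) and not without oxidized replicate 2 (adjusted p = 0.093) or reduced replicate 3 (adjusted p = 0.076) of 48 hr, or oxidized replicate 1 (adjusted p = 0.066), oxidized replicate 3 (adjusted p = 0.059) or reduced replicate 1 (adjusted p = 0.12) of 72 hr.

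YKT6, a SNARE for fusion with the vacuole, was lower in oxidized cells at 72 hr (-0.59, SE 0.20, limma, adjusted p = 0.043) and over both ages (-0.41, SE 0.14, adjusted p = 0.044). Both calls were lost after median-of-ratios scaling (adjusted p = 0.10 and 0.12). The call at 72 hr was lost without any of the 6 libraries of 72 hr but reduced replicate 3 (adjusted p of 0.052 to 0.17), and that over both ages without any of the 12 libraries but oxidized replicate 1 and reduced replicate 2 of 48 hr and oxidized replicate 3 and reduced replicate 3 of 72 hr (adjusted p of 0.080 to 0.11). In the list of tethering and docking genes, 0 of 7 passed in limma at 48 hr, at 72 hr or over both ages (background 3.85%, 9.61% and 11.9%). At an unadjusted p under 0.05 there were 1, 2 and 4 (background 14.6%, 20.4% and 23.2%). The 7 estimates at 72 hr were all negative, as were most of those of all genes tested. Their median was -0.51, beside -0.11 for all genes tested.

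Of the 8 genes for vacuolar breakdown, 0 passed at either age (background 3.85% at 48 hr and 9.61% at 72 hr), with medians of -0.29 and -0.38. At an unadjusted p under 0.05 there were 2 at 48 hr (background 14.6%) and 4 at 72 hr (background 20.4%). Over both ages 2 passed (background 11.9%), both lower in oxidized cells, and 5 had an unadjusted p under 0.05 (background 23.2%). PEP4, the main vacuolar protease, differed by -0.35 (SE 0.11, limma, adjusted p = 0.027) and CPS1, a vacuolar carboxypeptidase, by -0.80 (SE 0.28, adjusted p = 0.048). The call on PEP4 was lost after median-of-ratios scaling (-0.28, adjusted p = 0.095) and without oxidized replicate 3 (adjusted p = 0.084) or reduced replicate 2 (adjusted p = 0.077) of 48 hr or oxidized replicate 2 (adjusted p = 0.063), oxidized replicate 3 (adjusted p = 0.064) or reduced replicate 2 (adjusted p = 0.070) of 72 hr. That on CPS1 held in 2 of 7 other settings and without 3 of the 12 libraries (oxidized replicate 3 and reduced replicate 3 of 48 hr and oxidized replicate 2 of 72 hr), with adjusted p-values up to 0.16.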

How the data were processed

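RNA of 12 sorted yeast samples was read by 3′ RNA-seq. The authors aligned the reads to sacCer3 with bowtie2 under default settings, collapsed PCR copies by molecular identifier and counted what fell in a 3′ window that begins 350 bp before a gene's termination site and ends 200 bp after it. The deposited values are PPM, these reads divided by the library's total and scaled to 1000000 (the scale of RPM). The submitters' processing notes also name bcl2fastq 2.17. Which bowtie2 release and which gene models were used, and whether strand was, is not given in the sources used here. Because reads were counted after removal of copies, a read stands for a molecule.

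The table is separated by tabs, but 553 genes stand in blocks separated by commas and were split there. The 2 broken entries were left out, 6645 genes were kept, and 0 value columns were left without a sample. The steps of the PPM values gave whole reads for 100% of values above 0 (within 0.05 of a read), which set the depth. In the sacCer3 annotation 5921 of the names were found.

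Genes whose mean reached 20 PPM were compared on log2(PPM + 10) with limma 3.58.1 in R 4.3.3 (lmFit, contrasts.fit, eBayes with a trend), with 1 mean per group. The main test was chosen for PPM, the scale of the deposited values. Whole reads could be recovered from them, but no count test was run on those reads. The fit was tested on simulated data. Python 3.11.15, pandas 2.3.3 and matplotlib 3.10.9 served for the rest. Named in full were members past the threshold in any comparison, the 3 with the highest mean, ATG8 and ATG1. Of the 9 genes under another name and of the 7 related lists, genes past the threshold were named. ATG4, ATG7, ATG9, ATG22 and the remaining members named with values were chosen after these were seen. The members and lists were chosen with earlier results of these data known. Motifs were searched in the 250 bases before the start codon. Other settings tried were pseudocounts of 1 and 50 PPM, a filter at 50 PPM and none, scaling by median of ratios, leaving out 1 library at a time, a replicate block, and fits within an age (6 libraries). Voom weights on the recovered reads were added after the data were seen, as were sums of reads without each library and the overlap of rescaled libraries.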

Additional observations from a re-analysis of the deposited data

Results flagged for a closer look

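ATG8 and ATG19 stood out because their oxidized and reduced libraries did not overlap at either age and stood in the opposite order at 48 and 72 hr. For ATG8 at 48 hr this depended on the scaling, since after median-of-ratios scaling its oxidized libraries (683 to 788 PPM) overlapped the reduced ones (742 to 764 PPM). For ATG8 the redox difference at 72 hr was higher than that at 48 hr by 0.69 on the log2(PPM + 10) scale (SE 0.25, limma, unadjusted p = 0.0077, adjusted p = 0.26). For ATG19 the change was -1.18 (SE 0.36, unadjusted p = 0.0021, adjusted p = 0.15). Neither passed the adjusted threshold. Over the alternatives other than leaving out a library, the adjusted p ran from 0.19 to 0.35 for ATG8 and from 0.11 to 0.20 for ATG19. The direction held in each, which was likely beforehand for genes picked by the order of the same libraries.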

How the results depend on the processing

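Of the counts of ATG genes called, those for the age difference in oxidized cells, the age difference over both subpopulations and the interaction were 0 in every alternative run. At 48 hr the count stayed at 0 except for 0 to 1 when a library was left out. At 72 hr it was 1 throughout, with 0 to 1 when a library was left out. For the redox difference over both ages it was 0 with a pseudocount of 1 PPM, 2 with 50 PPM (ATG1 and ATG26), 0 without the filter, 0 with a mean of at least 50 PPM, which removes ATG26, and 0 to 3 when a library was left out. It was 0 without oxidized replicate 2 or reduced replicate 1 of 48 hr or without oxidized replicate 3 or reduced replicate 2 of 72 hr, and 3 without oxidized replicate 1, oxidized replicate 3 or reduced replicate 2 of 48 hr or reduced replicate 3 of 72 hr, and the genes called in any of these fits were ATG1, ATG7, ATG9, ATG11, ATG13, ATG26 and ATG33. For the age difference in reduced cells it was 1 (ATG19) with a mean of at least 50 PPM. With voom weights on the recovered reads the calls were again ATG8 at 72 hr and ATG26 over both ages. For single genes, 63 differences were followed through the alternatives. These were ATG genes with an unadjusted p under 0.05, related genes past the threshold, and the redox differences of ATG8, ATG19, ATG26, ATG33 and ATG1. None turned its direction, which was likely beforehand for differences chosen by their p in the same libraries. The cause of these changes was not tested.

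With the replicate number as a replicate block, the counts were 0 at 48 hr, 1 at 72 hr, 1 over both ages and 0 in the other 4 comparisons, as without it. The block removed the calls on YKT6 at 72 hr (adjusted p = 0.053) and over both ages (adjusted p = 0.052) and on CPS1 over both ages (adjusted p = 0.055). Whether the numbers pair the libraries could not be decided, since counting error at this depth can hide a pairing. The 18 pairs of libraries with the same number had correlations of -0.06 to 0.04, and 4 of 12 libraries correlated best with one of their own number.

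The median SE of a difference at one age was 0.42 for the 21 members, against 0.40 for all genes tested, and the 7 members with a mean of 20 to 50 PPM rest on 0 to 21 reads per library, with a median of 5.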
